A study of Mus musculus with 6 samples.

Results

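The genes described here were 10 members of the heterogeneous nuclear ribonucleoprotein (hnRNP) family among the 57180 genes of the deposited count table. They were *Hnrnpl*, its paralog *Hnrnpll*, *Hnrnpa1*, *Hnrnpa2b1*, *Hnrnpa3*, *Hnrnpc*, *Hnrnpd*, *Hnrnpf*, *Hnrnpk* and *Hnrnpu*. They were taken by gene symbol as a family, with *Hnrnpl* in first place because its product has been reported to bind lincRNA-EPS. RNA came from bone marrow-derived macrophages in culture, with 3 libraries from WT (C57BL/6) mice and 3 from *lincRNA-EPS* knockout (KO) mice, and the labels give genotype as the only difference between the groups. The sources used here do not say how the deletion was made. All 6 cultures received M-CSF at 40 ng/ml for 24 h and then RANKL at 40 ng/ml for another 48 h, which makes osteoclast precursors (OCPs). Neither the labels nor the methods gave the age of the mice behind these cultures or the number of animals. The replicates were described as biologically independent, so the p-values below measure the spread between 3 cultures of each genotype.

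hnRNP proteins coat nascent transcripts in the nucleus and steer how they are spliced, polyadenylated, exported and degraded. Most bind single-stranded RNA through RNA recognition motifs, and several shuttle between nucleus and cytoplasm. Splicing factors of this family often act on the splicing of their own transcripts, so that gene-level counts report only the amount of RNA and not the isoform or the protein. lincRNA-EPS is a long noncoding RNA of macrophages and red cell precursors known for restraining immune genes, and HNRNPL, which binds CA-rich RNA, is its best-known protein partner. In the table, 8 of the 10 members were annotated with the Pfam domain RRM_1. The exceptions were *Hnrnpk*, with KH domains, and *Hnrnpu*, with SAP and SPRY domains. The Reactome term for mRNA splicing was attached to 9 of the 10, *Hnrnpll* being the exception.

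The deleted RNA, listed as *Ttc39aos1*, was counted 20, 37 and 41 times in the WT libraries. It was at 0 in all KO libraries, and 3 counts was taken as the lowest measurable number. At these counts its adjusted p was 0.120 in edgeR's quasi-likelihood test, so the test's threshold was not reached even by the targeted gene. Library totals lay between 17757351 and 19998611 estimated counts. Markers of the labelled cells were present, with the 8 macrophage markers summing to 16832 to 17984 CPM (counts scaled by library size and TMM factor) in WT and 15165 to 18038 CPM in KO. The 10 osteoclast precursor markers summed to 5249 to 5675 CPM in WT and 6999 to 7415 CPM in KO, and the 10 neutrophil markers, 9 of them tested, to 1256 to 1416 CPM and 1681 to 2024 CPM. The 5 dendritic cell markers summed to 34.0 to 37.2 CPM in WT and 43.2 to 46.7 CPM in KO. These last 3 sums were higher in every KO library than in any WT library, and their part in the hnRNP values was not tested. Stromal markers summed to at most 20.1 CPM, and B cell, T and NK cell and erythroid markers to under 10 CPM in every library. In bulk RNA, fewer cells of a type and less RNA per cell cannot be told apart.

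CA-rich stretches are the sequences HNRNPL is known to prefer, and the short motif CANACA, in which N is any base, was searched for on the transcribed strand of the annotated lincRNA-EPS transcripts (GENCODE M21, GRCm38). The longer transcript, ENSMUST00000150239 of 796 nt, held 2 matches. The shorter transcript, ENSMUST00000154561 of 333 nt, held 1, which lay in the same stretch as the second of the longer transcript. Both stretches are shown because they are the only matches in the RNA that the KO lacks, with the match in capitals, 12 bases on either side, and positions counted from the transcript's first base.
lincRNA-EPS, positions 167 to 196: gagctggagttaCAGACAttgtgaggcgcc
lincRNA-EPS, positions 590 to 619: tcaagctggagcCAGACAtccacccaggtg
The letters in the motif were the same at both places. Such a match is common: of 12736 other transcripts within 10% of the longer length, 64.0% held at least 1 and 30.8% at least 2, and of 5283 within 10% of the shorter length, 38.1% held at least 1. The strict repeat CACACA did not occur in either transcript. A match describes the letters and was not tested for binding.

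All 10 members were well above the detection limit in OCPs. Per kilobase of the longest annotated transcript, *Hnrnpf*, a binder of G-rich RNA, had the highest WT level at 288 ± 5.10 CPM per kb (mean ± SD, n = 3 here and below). It was followed by *Hnrnpa2b1* at 247 ± 30.4, *Hnrnpk* at 209 ± 2.43 and *Hnrnpa1* at 186 ± 17.6 CPM per kb. *Hnrnpl* stood in the middle of the order at 127 ± 8.99 CPM per kb. Below it came *Hnrnpa3* at 99.1 ± 15.2, *Hnrnpu* at 95.5 ± 0.813 and *Hnrnpc* at 70.0 ± 3.81 CPM per kb, and then *Hnrnpd* at 28.1 ± 1.27 and *Hnrnpll* at 22.6 ± 1.75 CPM per kb. In WT the libraries of *Hnrnpa3* and *Hnrnpu* overlapped, while the other neighbours in the order did not. The gap was narrow between *Hnrnpa2b1*, lowest at 212.3 CPM per kb, and *Hnrnpk*, highest at 211.7 CPM per kb. In KO the order of means changed at 2 places, with *Hnrnpa2b1* (335 ± 64.6 CPM per kb) above *Hnrnpf* (305 ± 25.3) and *Hnrnpa3* (134 ± 31.3) above *Hnrnpl* (116 ± 8.51), and the libraries of both pairs overlapped. The order depended on the length used. Over the union of all exons, *Hnrnpa1* (184 CPM per kb) came second after *Hnrnpf* (227), and *Hnrnpl* (57.0) stood behind *Hnrnpa3* (94.6) and *Hnrnpu* (62.9). *Hnrnpll* was the lowest with either length.

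**Figure D1:**
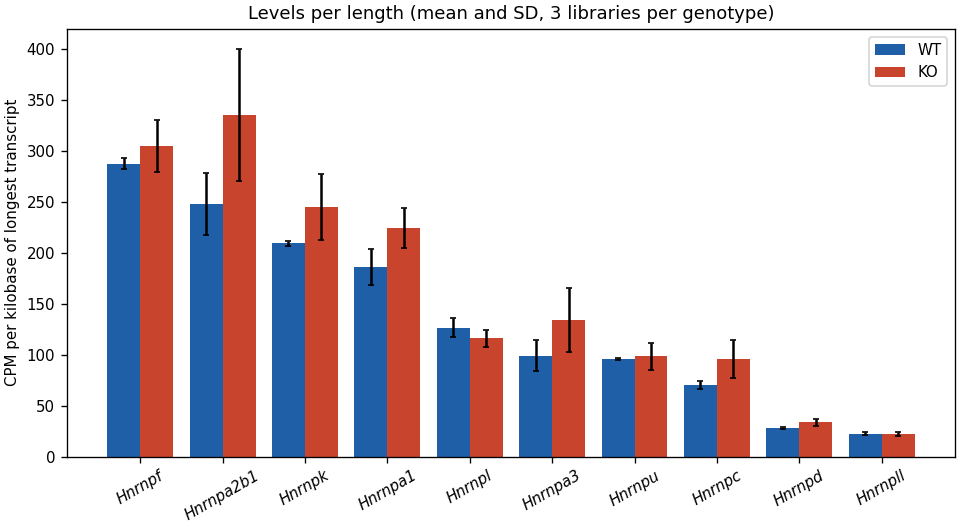
Mean level of each hnRNP gene in CPM per kilobase of the longest annotated transcript, with WT in blue and KO in red (3 libraries each, error bars SD). *Hnrnpf* and *Hnrnpa2b1* stood at the top and *Hnrnpd* and *Hnrnpll* at the bottom in both genotypes, and *Hnrnpl* was the only member besides *Hnrnpll* with a lower mean in KO.

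*Hnrnpl* (ENSMUSG00000015165) encodes the lincRNA-EPS partner itself, a splicing regulator. Its normalized counts were 331, 366 and 320.1 CPM in WT replicates 1, 2 and 3 and 324, 324 and 284 CPM in KO replicates 1, 2 and 3. WT replicate 2 was the highest and KO replicate 3 the lowest, and the other 4 libraries lay close together between them, so the genotypes overlapped. The means were 339 ± 24.1 CPM in WT and 311 ± 22.8 CPM in KO. The log2 fold change, KO against WT, was -0.13 (SE 0.10), with an adjusted p of 0.426 in edgeR's quasi-likelihood test, and its 95% interval ran from -0.35 to 0.10. Leaving out each library in turn gave -0.17 to -0.07, with -0.07 both without WT replicate 2 and without KO replicate 3. On the linear scale the value from all libraries was a ratio of 0.916 with an interval of 0.784 to 1.07. The interval lay inside a 1.3-fold change in either direction, which was the fold limit used for calls and is 0.379 on the log2 scale. The same held for 20.3% of the 13428 genes tested and for 34.7% of the 2062 genes at or above the level of the lowest member. The sign of the difference depended on how GC content, the share of G and C bases in a transcript, was treated. With a correction that removes each library's own trend over GC content, the log2 fold change of *Hnrnpl* was 0.02 with an interval of -0.11 to 0.16 (adjusted p 0.820, edgeR).

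*Hnrnpll*, a close relative of *Hnrnpl* known for its part in the splicing of the lymphocyte antigen CD45, was the least abundant member. It was at 110.0, 95.5 and 109 CPM in WT and at 99.2, 96.5 and 114 CPM in KO, in replicate order. The genotypes overlapped fully, with the lowest value in a WT library and the highest in a KO library. The log2 fold change was -0.02 (SE 0.11, interval -0.26 to 0.22, adjusted p 0.897, edgeR) and -0.10 without KO replicate 3. With the GC correction it was -0.28 (interval -0.43 to -0.13), with an adjusted p of 0.0639 in edgeR and 0.0206 in DESeq2, where 10.2% of the genes DESeq2 adjusted were under 0.05, and neither passed the limit of 0.01. That shift depended on which transcript gave the GC content. The longest *Hnrnpll* transcript is 40.7% GC and the longest protein-coding one 45.2%, and with the latter the corrected value was -0.16 (adjusted p 0.138, edgeR). The ratio of *Hnrnpl* to *Hnrnpll* counts was 3.01, 3.83 and 2.93 in WT and 3.27, 3.36 and 2.50 in KO, so the most extreme libraries on either side were again WT replicate 2 and KO replicate 3.

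**Figure D2:**
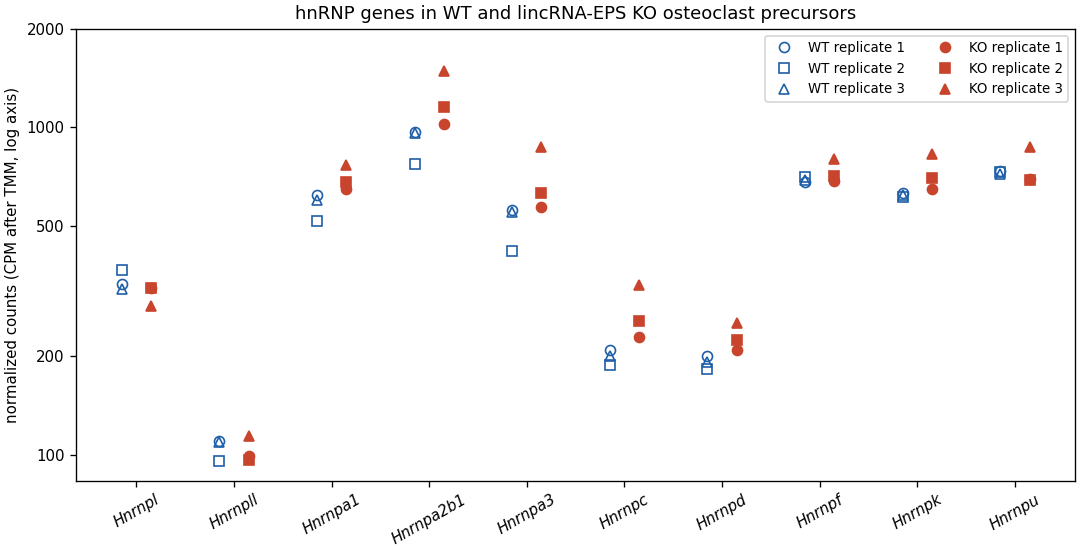
Normalized counts of the 10 hnRNP genes in every library (CPM after TMM, log axis), WT in open blue and KO in filled red symbols, with circles, squares and triangles for replicates 1, 2 and 3. The KO triangle is the highest point for every member other than *Hnrnpl*, where it is the lowest, and the WT square is the lowest point for 7 members.

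The 3 members of the A/B group encode some of the most abundant core hnRNP proteins, which bind widely along pre-mRNA and often promote exon skipping. They are not the whole group. *Hnrnpa0*, at 55.4% GC and outside the members, was lower in KO, with a log2 fold change of -0.45 (adjusted p 0.203, edgeR). That value was -0.21 without KO replicate 3 and -0.29 with the GC correction. *Hnrnpa2b1* was at 969.7, 774 and 962 CPM in WT and 1027, 1153 and 1483 CPM in KO. All KO libraries were above all WT libraries, with KO replicate 3 well above the other KO libraries and WT replicate 2 well below the other WT libraries. The means of 902 ± 111 and 1221 ± 236 CPM gave a log2 fold change of 0.44 (SE 0.16, interval 0.09 to 0.79, adjusted p 0.155, edgeR). Without KO replicate 3 it was 0.27, and with the GC correction 0.26 (adjusted p 0.134, edgeR).

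*Hnrnpa3* had the same shape, at 558, 419.7 and 553 CPM in WT and 569.7, 631 and 874 CPM in KO. The genotypes did not overlap, although the distance between WT replicate 1 and KO replicate 1 was small. Its log2 fold change was 0.44 (SE 0.18, adjusted p 0.169, edgeR), which became 0.24 without KO replicate 3 and 0.15 with the GC correction. *Hnrnpa1*, a repressor of splice sites, was at 623, 519 and 600.2 CPM in WT and 649, 682 and 766 CPM in KO. Its libraries were also separate, with means of 581 ± 54.8 and 699 ± 60.4 CPM. The log2 fold change of *Hnrnpa1* was 0.27 (SE 0.11, adjusted p 0.175, edgeR) and 0.11 with the GC correction. The table lists the biotype of *Hnrnpa1* as nonsense-mediated decay, a class of transcript and not of gene, and its counts are for the gene as a whole.

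*Hnrnpc*, whose product binds U-rich stretches and guards against the inclusion of unwanted exons, had the smallest p of the members. It was at 209, 188 and 201 CPM in WT and 229, 256 and 331 CPM in KO. Every KO library exceeded every WT library, and KO replicate 3 exceeded the other KO libraries by more than they differed between themselves. The means were 199 ± 10.9 and 272 ± 52.4 CPM, and the log2 fold change was 0.45 (SE 0.14, interval 0.14 to 0.76). The unadjusted p was 0.00963, which ranked 859 among the 13428 genes, and the adjusted p was 0.147 in edgeR. DESeq2 gave *Hnrnpc* an adjusted p of 0.0408, past 0.05 but not past the limit of 0.01 used here, and in that test 7.56% of genes passed 0.05 with more than 1.3-fold. With the GC correction DESeq2 gave it 0.0522. Its log2 fold change was 0.29 without KO replicate 3 and 0.25 with the GC correction (adjusted p 0.103, edgeR), and both were in the same direction.

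*Hnrnpd*, also called AUF1, binds AU-rich elements and is known for controlling the decay of cytokine transcripts. It was at 199.5, 182 and 192 CPM in WT and 208, 223 and 253 CPM in KO, again without overlap. The log2 fold change was 0.25 (SE 0.10, adjusted p 0.165, edgeR). With the GC correction it was 0.02, with an interval of -0.12 to 0.17 that lay inside the 1.3-fold limits. With the correction 40.1% of all tested genes and 63.9% of the 2062 genes at this level had their interval inside the limits.

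The remaining members differ from the others in how they bind nucleic acid. *Hnrnpk*, a KH-domain protein that binds C-rich RNA and DNA, was at 629, 614 and 623 CPM in WT and 648, 702 and 832 CPM in KO. The WT libraries lay close together (622 ± 7.22 CPM) and the KO libraries were spread (727 ± 94.8 CPM) without overlap, and the log2 fold change was 0.23 (SE 0.11, adjusted p 0.223, edgeR). It was 0.12 without KO replicate 3 and 0.03 with the GC correction (interval -0.14 to 0.19).

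*Hnrnpf* was at 679, 703 and 689 CPM in WT and 685, 712 and 801 CPM in KO. Its genotypes overlapped, with only KO replicate 3 outside the range of the rest by a wide margin. Its log2 fold change was 0.08 (SE 0.10, interval -0.13 to 0.30) and 0.07 with the GC correction. Without KO replicate 3 these values were 0.016 and 0.0035, so they rested on that library. *Hnrnpu*, also called SAF-A, binds both chromatin and RNA and helps to organise the nucleus. It was at 735, 731 and 723 CPM in WT and 698, 691 and 869 CPM in KO, so that 2 KO libraries were below all WT libraries and 1 was above them. The log2 fold change of *Hnrnpu* was 0.05 (SE 0.11, interval -0.21 to 0.30) with all libraries, -0.07 without KO replicate 3 and -0.22 with the GC correction (interval -0.40 to -0.03, adjusted p 0.143, edgeR).

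**Figure D3:**
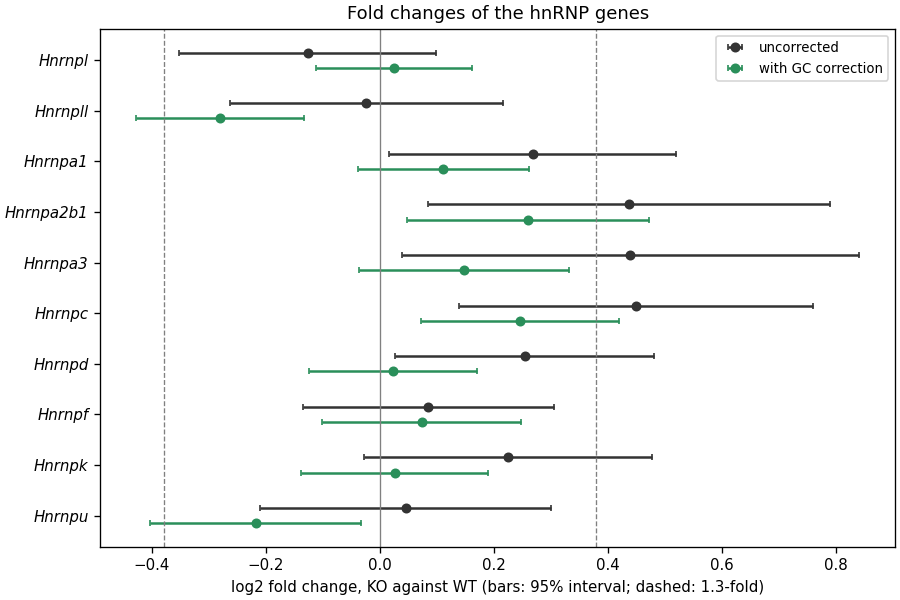
Log2 fold change of each hnRNP gene, KO against WT, with 95% intervals, without correction in black and with the GC correction in green, and the 1.3-fold limits as dashed lines. Without correction 4 intervals lay inside the limits (*Hnrnpl*, *Hnrnpll*, *Hnrnpf* and *Hnrnpu*), beside 20.3% of all genes, and with the correction 6 did (*Hnrnpl*, *Hnrnpa1*, *Hnrnpa3*, *Hnrnpd*, *Hnrnpf* and *Hnrnpk*), beside 40.1%. With the correction the value of *Hnrnpl* moved above 0, that of *Hnrnpu* moved below 0 and that of *Hnrnpll*, already below 0, moved further down.

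Of the 10 members, 0 passed the limits (adjusted p under 0.01 and more than 1.3-fold) in edgeR's test, where the share over all tested genes was 0.00745%, or 1 gene. DESeq2 also called 0 members at these limits, where its share over all genes was 1.22%. With the GC correction both tools again called 0 members, with shares of 0.0223% in edgeR and 3.14% in DESeq2. At such low shares most lists of this length would hold 0 calls, and the count is no measure of equality. Before adjustment, 5 members had p under 0.05, all with higher values in KO, against 13.0% of all genes on that side, and 0 members had p under 0.05 with lower values, against 13.2%. The 5 were *Hnrnpc*, *Hnrnpa2b1*, *Hnrnpd*, *Hnrnpa3* and *Hnrnpa1*. That count depended on single libraries, and so did the share over all genes on the same side. It was 1 without WT replicate 2 (5.61% of all genes), 2 without KO replicate 3 (8.97%), 3 without WT replicate 3 (9.19%) and 3 without KO replicate 2 (9.5%). It was 4 without WT replicate 1 (9.45%) and 6 without KO replicate 1 (16.5%). With the GC correction it was 2 higher (*Hnrnpa2b1* and *Hnrnpc*) and 2 lower (*Hnrnpll* and *Hnrnpu*), where 12.0% and 13.8% of all genes had such values.

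The WT and KO libraries did not overlap for 6 members, all with KO above WT. KO was above WT without overlap for 16.9% of all tested genes. Libraries were separate in either direction for 35.7% of them and for 51.6% of the 2062 genes at or above the level of the lowest member. An exact permutation test of 3 against 3 libraries gives no p below 0.1, and separate libraries reach that value. The median log2 fold change of the 10 members was 0.24, beside 0.01 over all tested genes. It was 0.15 without KO replicate 3 and 0.05 with the GC correction. The log2 fold change was above 0 for 8 of 10 members, beside 51.0% of all genes. With the GC correction this was again 8 of 10, beside 49.1%, but with *Hnrnpl* in (0.02) and *Hnrnpu* out (-0.22).

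The highest and the lowest library were the same for most members. KO replicate 3 was the highest library for 9 of the 10, where 33.8% of all tested genes and 39.2% of the 2062 genes at this level had it highest. WT replicate 2 was the lowest for 7 of the 10, beside 29.7% of all genes. As a share of all counts, the members together made up 0.510%, 0.458% and 0.500% of the WT libraries and 0.524%, 0.536% and 0.649% of the KO libraries. The same 2 libraries stood apart for GC content. Across 13176 genes, the deviation of a gene from its mean over the libraries correlated with its GC content at r = 0.563 in WT replicate 2 and r = -0.606 in KO replicate 3, and between -0.0990 and 0.230 in the other 4 libraries. In KO replicate 3, the median deviation was 0.35 on the log2 scale for the 3038 genes under 44% GC and -0.37 for the 3357 genes over 54% GC. The 10 members had a median deviation of 0.27 there and *Hnrnpl*, at 54.2% GC, one of -0.19. In WT replicate 2 the signs were opposite, with -0.16 for the members' median and 0.18 for *Hnrnpl*.

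**Figure D4:**
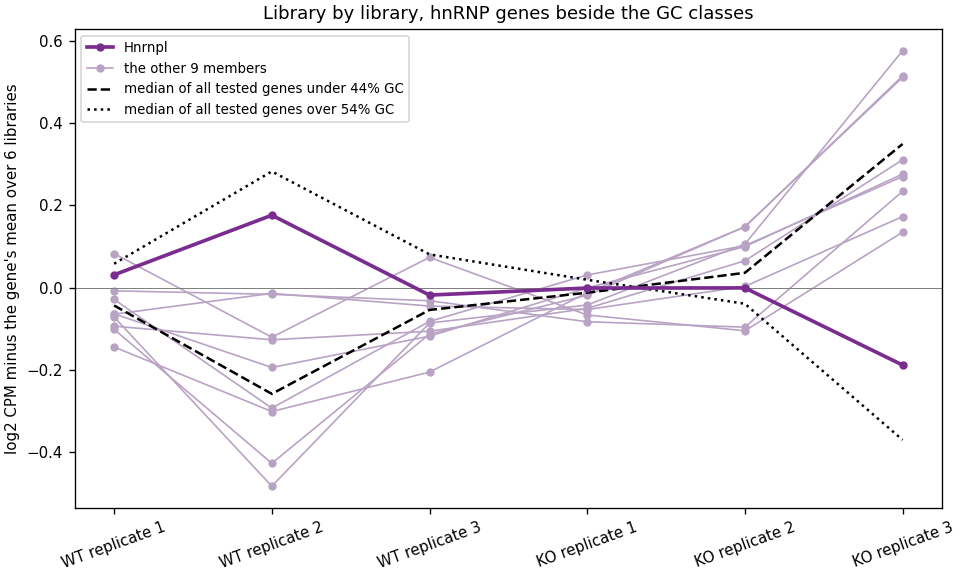
Deviation of each hnRNP gene from its own mean over the 6 libraries (log2 CPM), with *Hnrnpl* in dark purple, the other 9 members in pale purple, and the medians of all tested genes under 44% GC (dashed) and over 54% GC (dotted). Lines join the values of 1 gene and imply no order of the replicates. *Hnrnpl* ran with the GC-rich genes and the other members mostly with the GC-poor genes, with the widest spread in WT replicate 2 and KO replicate 3.

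*Hnrnpl* differed from the other members in GC content. It is 54.2% GC over its longest transcript, *Hnrnpf* is 49.0%, and the other 8 members lie between 39.9% (*Hnrnpa3*) and 44.1% (*Hnrnpa1*). Across the 10 members the log2 fold change correlated with GC content at r = -0.514, beside r = -0.510 across the 13176 tested genes with a GC value. The members' value leaned on *Hnrnpl* and *Hnrnpf*, since the other 8 span a narrow range of GC content. Among those 8 the values did not fall with GC content, with *Hnrnpa3* (39.9%) at 0.44, *Hnrnpll* (40.7%) at -0.02 and *Hnrnpu* (40.9%) at 0.05. At the upper end *Hnrnpa2b1* (43.6%) was at 0.44 and *Hnrnpa1* (44.1%) at 0.27. After the correction the correlations were 0.171 and -0.0152. The correction was fitted to these same genes, so a correlation near 0 across all of them follows from the fit. A genotype difference that tracks GC content would be removed with it. These correlations are across genes measured in the same 6 libraries, and genes are not independent replicates. The size of the log2 fold change was smaller with the correction for 8 members and larger for *Hnrnpll* and *Hnrnpu*, which are GC-poor but had small differences before it. The part of GC content in the differences between genotypes was not tested beyond these fits, and the labels give each library a batch name of its own.

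**Figure D5:**
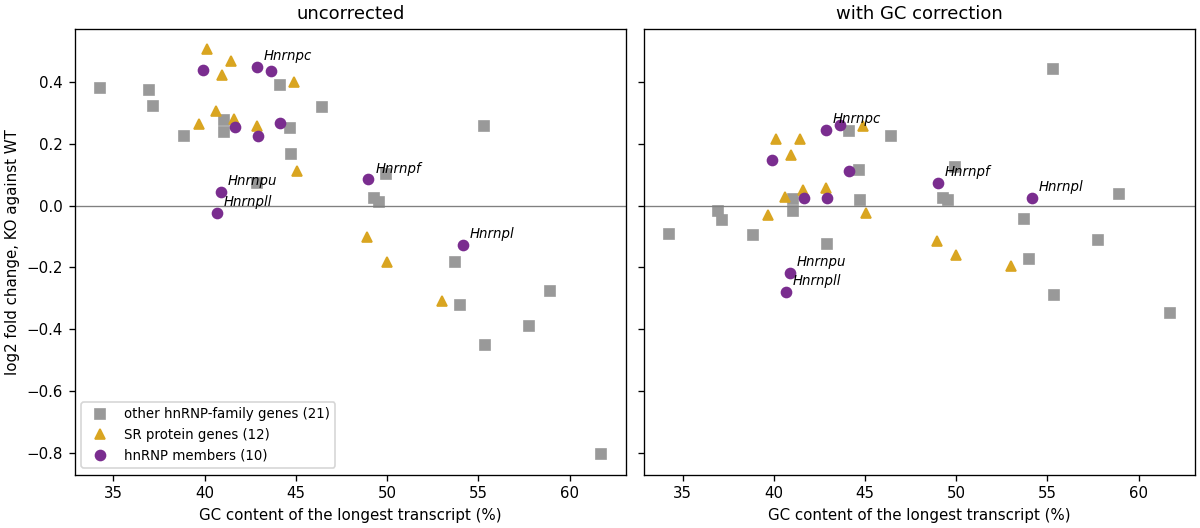
Log2 fold change against the GC content of the longest transcript for the 10 hnRNP members (purple circles), 21 other hnRNP-family genes (grey squares) and 12 SR protein genes (yellow triangles), without correction on the left and with the GC correction on the right. On the left the values decrease from GC-poor to GC-rich genes in the other hnRNP-family and SR protein lists. Among the members the most GC-rich gene, *Hnrnpl*, is the lowest, while the GC-poor members show no such decrease between themselves. On the right most values lie nearer 0 while *Hnrnpll* and *Hnrnpu* lie lower.

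Several hnRNP genes have processed pseudogenes, copies of the mRNA inserted elsewhere in the genome, and the estimated counts divide reads among such copies. Rows of the table whose transcripts matched a member at 95% identity over at least 200 bases, on either strand, were counted. *Hnrnpl*, *Hnrnpll*, *Hnrnpa2b1* and *Hnrnpu* had 0 such rows. The counts of *Hnrnpl*, *Hnrnpll* and *Hnrnpa2b1* were whole numbers in all 6 libraries, while those of *Hnrnpu* were not whole in any of the 6. *Hnrnpd* had 1 such row, on the opposite strand, with 1.02% of the *Hnrnpd* count. *Hnrnpk* had 2 (0.00932% of its count) and *Hnrnpc* had 1 (0.00463%), all processed pseudogenes. *Hnrnpa1* had 9, all annotated as pseudogenes, with counts that summed to 0.0242% of the *Hnrnpa1* count. *Hnrnpf* had 9, of which 6 were processed pseudogenes and 3 matched on the opposite strand, and they summed to 0.554% of the *Hnrnpf* count. Of that sum of 74.6 counts per library, 70.8 came from 1 opposite-strand row, *4933440N22Rik*. *Hnrnpa3* had 28, all processed pseudogenes, which summed to 5.57% of the *Hnrnpa3* count. One of them is named *Gm6793* (ENSMUSG00000092086) and had a mean of 8.30 counts per library. A further row with the same name (ENSMUSG00000121776) has the biotype lncRNA but is described in the table as an *Hnrnpa3* pseudogene. This further row had almost as many counts as *Hnrnpa3* itself, with 462 ± 98.6 CPM in WT and 620.4 ± 68.6 CPM in KO. Its log2 fold change of 0.43 (SE 0.16, adjusted p 0.162, edgeR) was close to that of *Hnrnpa3* without correction. The row has no GC value, so the GC correction left it at 0.43. The level of *Hnrnpa3* is therefore uncertain. Summed with its copies and that row, 30 rows in all, it had a log2 fold change of 0.44 (SE 0.17, adjusted p 0.163, edgeR). This was as large as that of *Hnrnpa3* alone without correction, and the sum was not fitted with the GC correction.

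The rest of the hnRNP family was described by a list of 22 genes, of which 21 were tested, and 0 passed the limits. Before correction 15 were higher and 6 lower in KO, where 51.0% of all tested genes were higher. Their median log2 fold change of 0.17 became 0.055 without KO replicate 3 and -0.02 with the GC correction. At an unadjusted p under 0.05 there were 5 higher and 4 lower, beside the 13.0% and 13.2% of all genes. These became 3 and 0 with the GC correction (12.0% and 13.8% of all genes). Without WT replicate 2 they were 1 and 1 (5.61% and 5.6%). They were 2 and 3 without KO replicate 3 (8.97% and 10.3%), and 3 and 3 without WT replicate 3 (9.19% and 10.4%). Without KO replicate 2 they were 4 and 2 (9.5% and 9.24%), and without WT replicate 1 they were 5 and 3 (9.45% and 10.9%). Without KO replicate 1 they rose to 7 and 5 (16.5% and 16.7%). *Pcbp4*, a poly(C)-binding protein gene at 61.7% GC, had the smallest p, with 5.53 ± 0.953 CPM in WT and 3.16 ± 0.354 CPM in KO. Its log2 fold change was -0.81 (SE 0.19, adjusted p 0.147, edgeR) and -0.35 with the correction. DESeq2 gave *Pcbp4* an adjusted p of 0.0378, where 7.56% of genes passed 0.05 with more than 1.3-fold. With the correction DESeq2 gave it 0.384. *Pcbp1*, a relative of *Pcbp4*, was at -0.39 and -0.11 without and with the correction. *Hnrnph3*, a relative of *Hnrnpf* at 44.1% GC, was at 0.39 and 0.24, and *Hnrnph1* was at 0.32 and -0.05. The corrected sign of *Hnrnph1* depended on the transcript used, since its longest one is 37.1% GC and its longest protein-coding one 45.4%, and the latter gave 0.19 (adjusted p 0.167, edgeR). *Syncrip*, which encodes hnRNP Q, was at 0.37 and -0.02 and is 37.0% GC. Without KO replicate 3 and without correction *Hnrnph1* was at 0.21 and *Syncrip* at 0.19. Across the 21 genes the log2 fold change correlated with GC content at r = -0.839, and at r = -0.129 after the correction.

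SR proteins are the other main family of splicing regulators and often act against hnRNP proteins at the same exons. Of 13 listed genes 12 were tested and 0 passed the limits, with 9 higher and 3 lower in KO, where 51.0% of all tested genes were higher. At an unadjusted p under 0.05 there were 5 higher and 0 lower, beside 13.0% and 13.2% of all genes. These became 3 and 1 with the GC correction (12.0% and 13.8% of all genes). Without WT replicate 2 they were 0 and 0 (5.61% and 5.6%). They were 2 and 0 without KO replicate 3 (8.97% and 10.3%), and 8 and 0 without KO replicate 1 (16.5% and 16.7%). Without WT replicate 1 (9.45% and 10.9%) and without WT replicate 3 (9.19% and 10.4%) they were 4 and 0. Without KO replicate 2 they were 4 and 1 (9.5% and 9.24%). Their median log2 fold change was 0.27, and it became 0.16 without KO replicate 3 and 0.04 with the GC correction, so both families had a median above 0 before it. The correlation of the log2 fold change with GC content was r = -0.910 across these 12 genes and stayed at r = -0.703 after the correction. *Srsf3*, the smallest SR protein and itself a reported partner of lincRNA-EPS, was at 289, 238 and 288 CPM in WT and 302, 352 and 437 CPM in KO. Its libraries were separate, and its log2 fold change was 0.42 (SE 0.15, adjusted p 0.152, edgeR), 0.27 without KO replicate 3 and 0.16 with the correction. *Srsf5* was at 0.51, *Srsf10* at 0.47, *Tra2a* at 0.40 and *Srsf6* at 0.26, with corrected values of 0.22, 0.22, 0.26 and 0.06. Without KO replicate 3 and without correction these 4 genes were at 0.28, 0.22, 0.23 and 0.16. The corrected value of *Srsf5* was 0.34 with the GC content of its longest protein-coding transcript. *Tardbp*, which encodes TDP-43, another reported partner, was at 293, 230.0 and 286 CPM in WT and 286, 298 and 356 CPM in KO. These overlapped, and its log2 fold change of 0.22 (SE 0.13, adjusted p 0.291, edgeR) was 0.12 without KO replicate 3 and -0.005 with the correction. The 3 reported partners thus had adjusted p-values of 0.426 for *Hnrnpl*, 0.152 for *Srsf3* and 0.291 for *Tardbp*, and none passed the limits.

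The genes whose pattern over the 6 libraries was most like that of *Hnrnpl*, among 8858 with a mean of at least 10 CPM, were *Dusp5* (r = 0.998), *Idua* (0.997), *Rnps1* (0.997), *Ppp2r5d* (0.996) and *Nomo1* (0.995). Their GC content was 51.0% to 56.7%, near that of *Hnrnpl*. After the GC correction the same 5 correlations were 0.868, 0.403, 0.645, 0.496 and 0.703. The 5 genes were picked for the highest uncorrected values, so a fall under another scaling follows from that choice. It says nothing about GC content. The other 9 members all correlated negatively with *Hnrnpl*, from -0.971 for *Hnrnpa3* to -0.664 for *Hnrnpu*. The share of all genes with a negative correlation was not computed. After the correction 7 of these 9 were positive, up to 0.764 for *Hnrnpk*, and *Hnrnpll* was at -0.487 and *Hnrnpu* at -0.04. These are descriptions over 6 libraries, which share their depth and GC trends with every gene in them.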

How the data were processed

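RNA was sequenced from 3 WT and 3 KO cultures with stranded mRNA libraries. The authors deposited 1 table of estimated counts per gene, not normalized. The submitters' processing notes name fastp, HISAT2, StringTie and RSEM and the build GRCm39, without versions, and the methods name no test across genes. Of the detected genes in a library, 25.1% to 26.6% had a count that was not whole, and counts were rounded for the tests. The table also holds the authors' mean per genotype, which was not used.

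Genotype was read from the labels. In R 4.3.3, edgeR 4.0.16 was run on the whole table (filterByExpr, TMM, glmQLFit with legacy = FALSE, glmQLFTest, no covariate), with Benjamini-Hochberg adjustment over the 13428 genes tested. A call needed an adjusted p under 0.01 and more than 1.3-fold. The common biological coefficient of variation was 0.142. The 95% intervals come from each gene's standard error and the total degrees of freedom of the fit. DESeq2 1.42.0, limma-voom (limma 3.58.1), other scalings, filters and limits, a replicate block, leaving out each library and a GC correction were the alternatives. The correction enters as offsets a natural spline with 5 degrees of freedom of each library's deviation on GC content.

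GC content, lengths, transcripts and copies came from GENCODE M21 on GRCm38, in which 51884 of the table's identifiers have a transcript. Since that build differs from the one in the submitters' notes, no gene positions are given. The *Gm6793* row with identifier ENSMUSG00000121776 is not in that annotation, so it could not be aligned and has no GC value. No pair of libraries agreed within sampling noise. The fits were tested on simulated counts. The floor of 3 counts was 0.150 to 0.169 CPM, and covers counting error only.

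The members and gene lists were chosen with earlier results of these data known. Named were the 10 members, *Ttc39aos1*, *Srsf3*, *Tardbp*, up to 5 genes of each other list with the smallest p, and the 5 genes most like *Hnrnpl*. *Gm6793*, *4933440N22Rik* and *Hnrnpa0* were named after their values were seen. Same-numbered WT and KO libraries deviated together with r of -0.215, 0.0766 and 0.166, so the numbers were not taken to pair them.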

Additional observations from a re-analysis of the deposited data

How the results depend on the processing

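Over 21 alternatives 0 of the 10 hnRNP members, 0 of the other hnRNP genes and 0 of the SR protein genes passed the limits, and the numbers of all tested genes that did so differed more. These were 126 with DESeq2, 3 with the GC correction, 340 with DESeq2 and the GC correction, and 0 to 2 when a library was left out. With 2 settings chosen after seeing the data it was 4, namely the GC correction without KO replicate 3 and the GC correction from the longest protein-coding transcript. *Hnrnpl* lay between -0.17 and -0.066 when a library was left out. It changed sign under all 5 fits with a GC correction, to 0.025 in edgeR, 0.025 with the replicate block as well, 0.027 in DESeq2, 0.014 without KO replicate 3 and 0.012 with the GC content of the coding transcript, and its adjusted p ranged from 0.360 to 0.920 over 19 alternatives. *Hnrnpu* changed sign to -0.22, -0.21, -0.21, -0.22 and -0.23 in the same 5 fits and to -0.070 without KO replicate 3, and lay between -0.070 and 0.10 when a library was left out. *Hnrnpll* lay between -0.10 and 0.022 when a library was left out. The members' median log2 fold change was 0.050, 0.049, 0.052, 0.030 and 0.036 in the same 5 fits and between 0.15 and 0.31 when a library was left out. The cause of these changes was not tested.

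Same-numbered samples shared only a number. With the replicate block 1 tested gene and 0 members were called, and *Hnrnpl* was at -0.13. When 1 library is left out its genotype keeps 2, which are assumed to vary as the others do. *Hnrnpl* had 5587 to 6691 counts per library.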
